A study of Mus musculus with 2 samples.

Results

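The let-7 and miR-98 family, a group of microRNAs (miRNAs) that share 1 seed, was followed in whole mouse femur in mice whose ovaries had been removed (OVX) and in sham-operated mice. The members were chosen by name: the 9 mature miRNAs mmu-let-7a-5p, mmu-let-7b-5p, mmu-let-7c-5p, mmu-let-7d-5p, mmu-let-7e-5p, mmu-let-7f-5p, mmu-let-7g-5p, mmu-let-7i-5p and mmu-miR-98-5p, of 1881 mouse miRNAs on the array. All probes carrying these names were used. Both groups were female mice aged 9 months on a C57BL/6 background, and the operation is the only difference the labels give. The femurs were homogenised with bone and marrow together, RNA from 4 mice was pooled for each group, and each pool was hybridised to 1 single-colour Agilent miRNA array. A single array stands for each group, so nothing here has a replicate check or a p-value, and "higher" and "lower" describe these 2 arrays. The pools hold all cells of the femur, so fewer cells of a type and less RNA per cell cannot be told apart.

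miRNAs are short RNAs that guide repression of messenger RNAs, which they find mainly by pairing of the seed, bases 2 to 8 counted from the 5′ end. Family members share the seed and so a common pool of targets, among them the RNA-binding proteins Lin28a and Lin28b, the chromatin protein Hmga2 and Ras genes. LIN28 in turn binds let-7 precursors and blocks their maturation, and mature let-7 rises as cells differentiate. In bone-forming cells let-7 is known for favouring osteoblast differentiation by repressing Hmga2.

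The mature sequences are shown because the seed defines the family and the bases outside it are what the array probes must tell apart. All 9 were found in the RefSeq miRNA table (build GRCm38.p6), all are 22 bases long, and the seed is in capitals.
let-7a-5p: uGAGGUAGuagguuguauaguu
let-7b-5p: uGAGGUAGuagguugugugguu
let-7c-5p: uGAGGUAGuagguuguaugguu
let-7d-5p: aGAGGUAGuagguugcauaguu
let-7e-5p: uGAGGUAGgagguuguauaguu
let-7f-5p: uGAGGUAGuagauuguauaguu
let-7g-5p: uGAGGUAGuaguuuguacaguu
let-7i-5p: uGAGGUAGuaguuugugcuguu
miR-98-5p: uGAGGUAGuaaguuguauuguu

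Counted from the 5′ end of let-7a, let-7c differs by A19G alone, let-7e by U9G alone and let-7f by G12A alone. let-7b carries A17G and A19G, let-7d U1A and U16C, let-7g G12U and U18C, and miR-98 G11A and A19U. let-7i differs most from let-7a, with G12U, A17G, U18C and A19U. Of the 36 pairs of members 4 differ by 1 base, and whether a probe also takes up RNA of a near neighbour was not tested.

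Each member had 2 probes of different length, complementary to the miRNA from its 3′ end; the longer miR-98 probe covers the whole miRNA. Printed here, for the comparison at equal length, are 4 probes of 20 bases and then 2 of 19 bases, with capitals where a probe differs from the let-7a probe.
let-7a probe: aactatacaacctactacct
let-7f probe: aactatacaaTctactacct
let-7g probe: aactGtacaaActactacct
let-7i probe: aacAGCacaaActactacct
let-7c probe: aacCatacaacctactacc
let-7d probe: aactatGcaacctactacc

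The probes match the mouse build mm9, as the files list it, on 7 chromosomes. let-7a matches chromosome 13 from 48633562 to 48633581 and chromosome 9 from 41344817 to 41344836. let-7f matches chromosome 13 from 48633206 to 48633226 and chromosome X from 148346897 to 148346917, and let-7d matches chromosome 13 from 48631400 to 48631417. let-7b lies on chromosome 15 from 85537759 to 85537776, and let-7c on chromosome 15 from 85537049 to 85537067 and on chromosome 16 from 77599920 to 77599938. let-7g lies on chromosome 9 from 106081179 to 106081198, let-7i on chromosome 10 from 122422703 to 122422722, let-7e on chromosome 17 from 17967334 to 17967351 and miR-98 on chromosome X from 148347773 to 148347793. In the RefSeq gene table (GRCm38.p6, used for neighbours only) the family has 12 hairpins. Mirlet7g lies within the span of Wdr82, Mirlet7e within Spaca6, Mirlet7f-2 and Mir98 within Huwe1, Mirlet7a-2 within the noncoding Mir100hg, and Mirlet7b and Mirlet7c-2 within the noncoding Lncppara.

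A miRNA was taken as present where over 50% of the usable spots of a probe were well above background. This held for 202 miRNAs in sham, 299 in OVX and 197 in both. Brightness at the 75th percentile of the 350 probes present on both arrays was 2.02-fold higher in OVX, 1.01 in log2. Levels are log2 signals minus that percentile of their own array, so a difference is relative to the other miRNAs. Of the cell markers on fixed lists, all 4 of red cells and all 3 of granulocytes and monocytes were present on both arrays, while of the 5 mesenchymal and bone-cell markers 0 were present in sham and 1 in OVX. Of the 3 cartilage markers 2, and of the 2 endothelial markers 1, were present on both arrays. Of the 4 skeletal muscle markers 2 were present in sham and 0 in OVX. The liver marker miR-122-5p and the neuronal markers miR-124-3p and miR-9-5p were present on neither. Marker differences ran from -0.71 to 0.97 for red cells, from -0.63 to 1.08 for granulocytes and monocytes and from 0.22 to 1.43 for the 2 lymphocyte markers measured. They were -0.49 and 0.17 for the 2 cartilage markers measured and 0.77 for the endothelial one. Summed marker signals, not scaled between arrays, went from 6826 to 16536 for red cells, from 9245 to 13720 for granulocytes and monocytes, from 292 to 861 for lymphocytes and from 17.3 to 54.0 for mesenchymal and bone cells. The sums went from 256 to 415 for cartilage, from 57.4 to 191 for endothelium and from 66.2 to 58.9 for skeletal muscle. The part of these cells in the let-7 values was not tested.

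Of the 9 members, 7 were present on both arrays and let-7e and miR-98 on neither. After scaling, let-7f and let-7g were higher in OVX, let-7i was higher by less, let-7a and let-7c lay near 0, and let-7d and let-7b were lower. The differences ran from -0.22 to 0.56 with a median of 0.06, on both sides of 0 under this scaling. Over all 197 miRNAs the median was -0.04 and the quartiles were -0.36 and 0.28. None of the 7 reached 1.5-fold in either direction, against a background of 11.2% of all measured miRNAs at least 1.5-fold higher and 14.7% at least 1.5-fold lower. All 7 were thus within 1.5-fold, as were 74.1% of all measured miRNAs, and 2-fold was passed by 0 members and by 2.03% of all in each direction. Of the 7, 4 were above 0, and 47.2% of all measured miRNAs were.

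Before scaling, each of the 7 was brighter on the OVX array. Most measured miRNAs were too: of the 197, 155 gained 1.5-fold or more without scaling, and 0 lost as much. Their unscaled median difference was 0.97, so the brighter signal of all 7 does not set the family apart. The unscaled spots of all 14 probes of the 7 members were separate between the arrays, with 12 to 15 usable spots per probe and array. The same count over all 350 probes is not given here, so this separation is not a trait of the family. The unscaled ratios of OVX to sham ran from 1.73-fold for let-7b to 2.96-fold for let-7f, below and above the 2.02-fold ratio at the 75th percentile used for scaling. After scaling, the spot ranges of 6 of the 14 probes were separate and those of 8 overlapped, again without a count over all probes to compare. Values per probe are mean processed signals in intensity units with the SD between spots, which is technical and holds no variation between mice; signals of different probes are not comparable with each other.

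**Figure D1:**
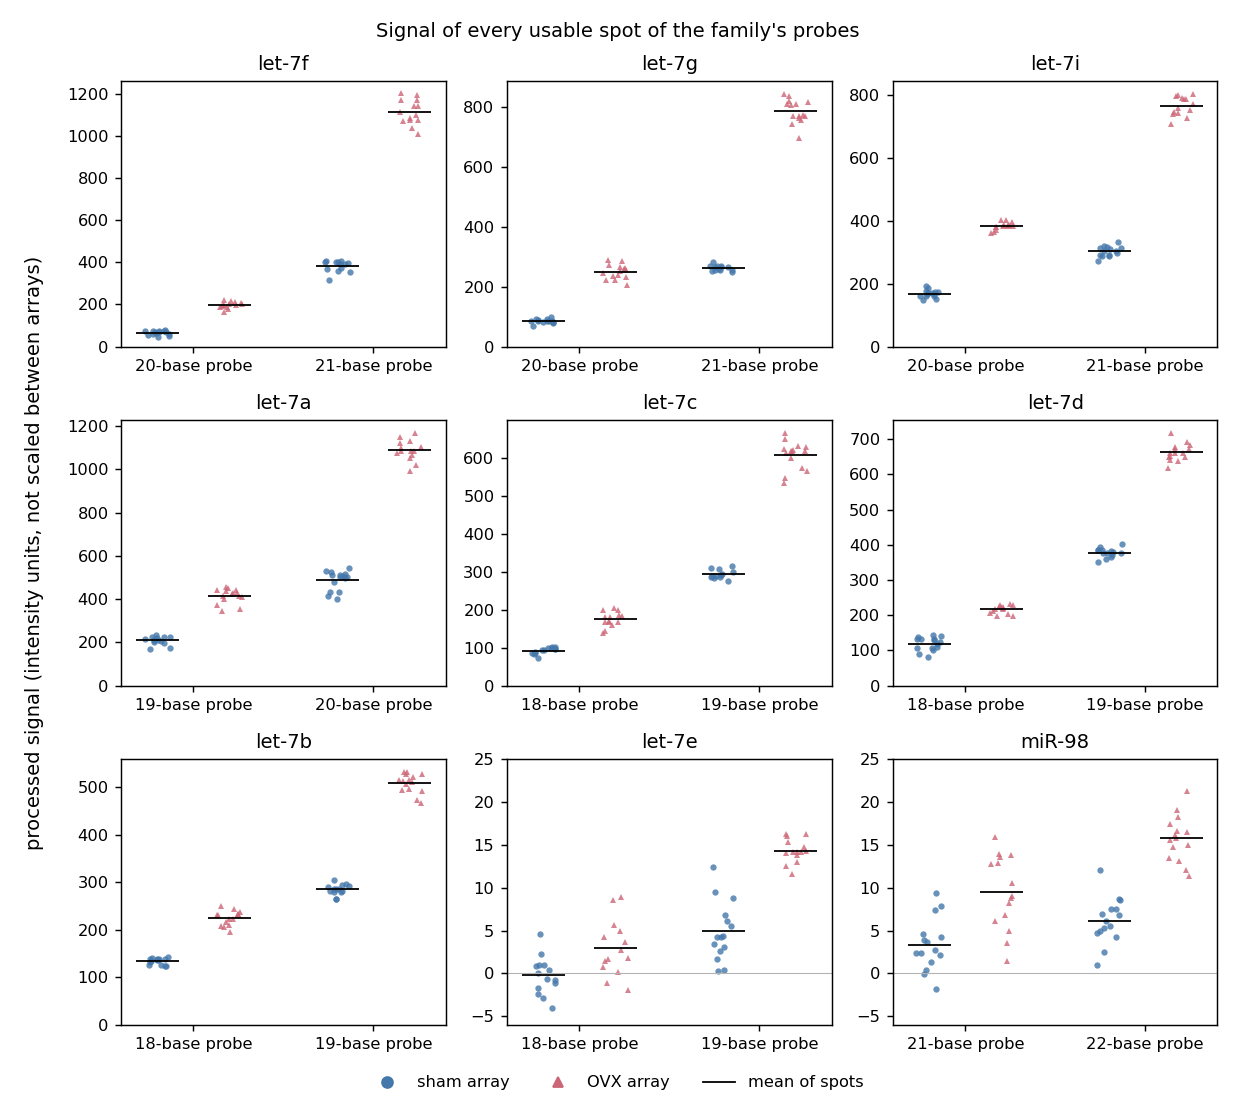
Processed signal (intensity units, linear axes that differ between panels, not scaled between arrays) of every usable spot for the 2 probes of each of the 9 family members, sham in circles and OVX in triangles, with the mean of the spots as a line. In the panels of the 7 measured members the OVX spots lie above the sham spots for both probes, and the let-7e and miR-98 panels show signals near background.

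mmu-let-7f-5p, made from hairpins on chromosomes 13 and X, had the largest difference of the family. Its 20-base probe read 65.5 ± 10.04 (SD, 14 spots) in sham and 198 ± 15.6 (14 spots) in OVX. Its 21-base probe read 382 ± 27.0 (13 spots) in sham and 1114 ± 59.0 (14 spots) in OVX. Both probes kept separate spot ranges after scaling. The scaled level went from 0.29 to 0.85, a difference of 0.56 (spot SE 0.04, the error propagated from the spread between spots), or 1.47-fold.

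mmu-let-7g-5p, which has a single hairpin within Wdr82, gave nearly the same difference. Its 20-base probe read 85.4 ± 7.28 (14 spots) in sham and 249 ± 24.2 (15 spots) in OVX. Its 21-base probe read 262 ± 8.72 (13 spots) in sham and 786 ± 39.4 (15 spots) in OVX. The spot ranges of both probes were separate after scaling, and the level went from 0.21 to 0.76, a difference of 0.55 (spot SE 0.03), or 1.47-fold. let-7f and let-7g stood just inside the 1.5-fold rule, at places 25 and 26 from the top of the 197. Both passed it with outlier spots kept (0.61 and 0.60) and against the median of all miRNAs (0.60 and 0.59). Over all miRNAs, 25 were at least 1.5-fold higher with outlier spots kept and 27 against the median, where 22 were as reported.

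mmu-let-7i-5p, from a hairpin on chromosome 10 with no overlapping gene in the table, came next. Its 20-base probe read 168 ± 11.7 (14 spots) in sham and 383 ± 12.4 (14 spots) in OVX. Its 21-base probe read 303 ± 15.6 (14 spots) in sham and 764 ± 30.2 (14 spots) in OVX. The level went from 0.81 to 1.05, a difference of 0.25 (spot SE 0.02), or 1.19-fold. The probes differed, at 0.18 and 0.32, and after scaling the spot ranges overlapped for the shorter one and were separate for the longer one.

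mmu-let-7a-5p, made from hairpins on chromosomes 9 and 13, was close to 0. Its 19-base probe read 210 ± 18.7 (14 spots) in sham and 415 ± 33.8 (15 spots) in OVX. Its 20-base probe read 488 ± 45.4 (15 spots) in sham and 1089 ± 47.2 (14 spots) in OVX. The level went from 1.31 to 1.37, a difference of 0.06 (spot SE 0.03), and the probes lay on opposite sides of 0, at -0.03 and 0.15, with overlapping spot ranges. let-7c, 1 base away from let-7a, was also near 0.

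The let-7c 18-base probe read 92.6 ± 8.14 (13 spots) in sham and 175 ± 19.6 (14 spots) in OVX. Its 19-base probe read 294 ± 12.1 (12 spots) in sham and 607 ± 37.0 (15 spots) in OVX. The level of 0.35 in sham and 0.32 in OVX gave a difference of -0.03 (spot SE 0.03), no larger than its own error, with the probes at -0.09 and 0.03. let-7a and let-7c were the 2 members whose probes disagreed in sign.

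let-7d and let-7b were the lowest of the family. The let-7d 18-base probe read 119 ± 19.2 (15 spots) in sham and 217 ± 11.3 (14 spots) in OVX, and its 19-base probe 378 ± 13.3 (14 spots) and 663 ± 24.4 (15 spots). The let-7d level went from 0.72 to 0.54, a difference of -0.18 (spot SE 0.03), or 0.884-fold. Scaled spot ranges overlapped for both let-7d probes.

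The let-7b 18-base probe read 134 ± 6.02 (14 spots) in sham and 225 ± 14.96 (15 spots) in OVX, and its 19-base probe 285 ± 11.1 (14 spots) and 508 ± 20.4 (15 spots). The let-7b level went from 0.59 to 0.37, a difference of -0.22 (spot SE 0.02), or 0.858-fold. Both let-7b probes were below 0, and the scaled spot ranges were separate for the longer one.

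**Figure D2:**
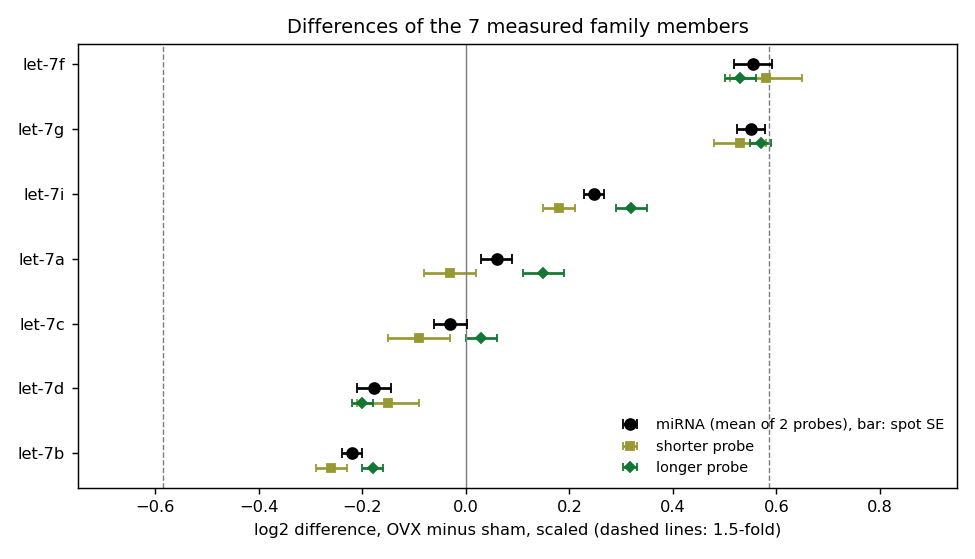
Scaled log2 differences, OVX minus sham, of the 7 measured members (black, mean of 2 probes) and of each member's shorter and longer probe, with spot SE as bars and dashed lines at 1.5-fold. let-7f and let-7g sit near 0.55, let-7i at 0.25 and the other 4 between -0.22 and 0.06.

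let-7e and miR-98 were not well above background on either array, so no fold is given. The let-7e probes read -0.25 and 4.90 in sham and 2.97 and 14.3 in OVX, where the lowest signal counted as present was 17.8 in sham and 19.3 in OVX. The miR-98 probes read 3.36 and 6.16 in sham and 9.49 and 15.8 in OVX. Negative control spots read 1.93 ± 2.81 (SD, 982 spots) in sham and 1.36 ± 2.86 (SD, 978 spots) in OVX. The let-7e probes differ by 1 base from the let-7a sequence over the stretch they cover.

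Gaps between members do not depend on the constant by which an array is scaled. In the order let-7f, let-7g, let-7i, let-7a, let-7c, let-7d, let-7b, the first 2 differed by 0.0035 (spot SE 0.05) and the last 2 by 0.04 (spot SE 0.04), so neither pair was separated. The gap from let-7g to let-7i was 0.30 (spot SE 0.03) and that from let-7i to let-7a 0.19 (spot SE 0.04). let-7a and let-7c were 0.09 apart (spot SE 0.04), and let-7c and let-7d 0.15 apart (spot SE 0.05). From let-7f to let-7b the gap was 0.78 (spot SE 0.04), or 1.71-fold. Probes of 1 miRNA differed with an SD of 0.11 over all miRNAs and by 0.04 to 0.17 within the 7 members. The gap of 0.09 between let-7a and let-7c is thus not larger than the spread between probes. The gap of 0.15 between let-7c and let-7d also lies within the range for the 7 members, and that of 0.19 between let-7i and let-7a lies just above it.

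let-7f, let-7g and let-7i, the 3 members without G at position 12, had differences from 0.25 to 0.56, and let-7a, let-7b, let-7c and let-7d, with G there, from -0.22 to 0.06. This grouping was made after the values were seen and is a description. The same 3 members have the longer probes, so sequence group and probe length go together. The 18-base probes of the family ran from -0.26 to -0.09, the 19-base probes from -0.20 to 0.03, the 20-base probes from 0.15 to 0.58 and the 21-base probes from 0.32 to 0.57. Over all 350 probes, differences fell with GC content (Spearman's rho -0.31) and rose with length (rho 0.21). GC content and length are themselves tied (rho -0.85). Over the family's own 14 probes the ties were closer, with rho -0.69 for GC content and 0.83 for length. Probes share their array, and no test was made.

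Probes of equal length allow a closer comparison. The 20-base probes of let-7a and let-7g, printed above, have the same GC content of 35.0%. They gave 0.15 and 0.53, which were 0.39 apart (spot SE 0.06). The 20-base let-7f probe (30.0% GC) lay 0.43 (spot SE 0.08) above the let-7a probe. The 20-base let-7i probe (40% GC) lay 0.03 (spot SE 0.05) above it, which is within the error. At 19 bases and 42.1% GC, let-7c lay 0.24 (spot SE 0.03) above let-7d, and at 18 bases and 38.9% GC by 0.06 (spot SE 0.08). At equal probe length let-7f and let-7g thus stood above let-7a by more than the spot error, and let-7i by less than it. Each of these comparisons uses 1 probe per member. Spot error leaves out the spread between probes of 1 miRNA, which had an SD of 0.11 over all miRNAs.

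**Figure D3:**
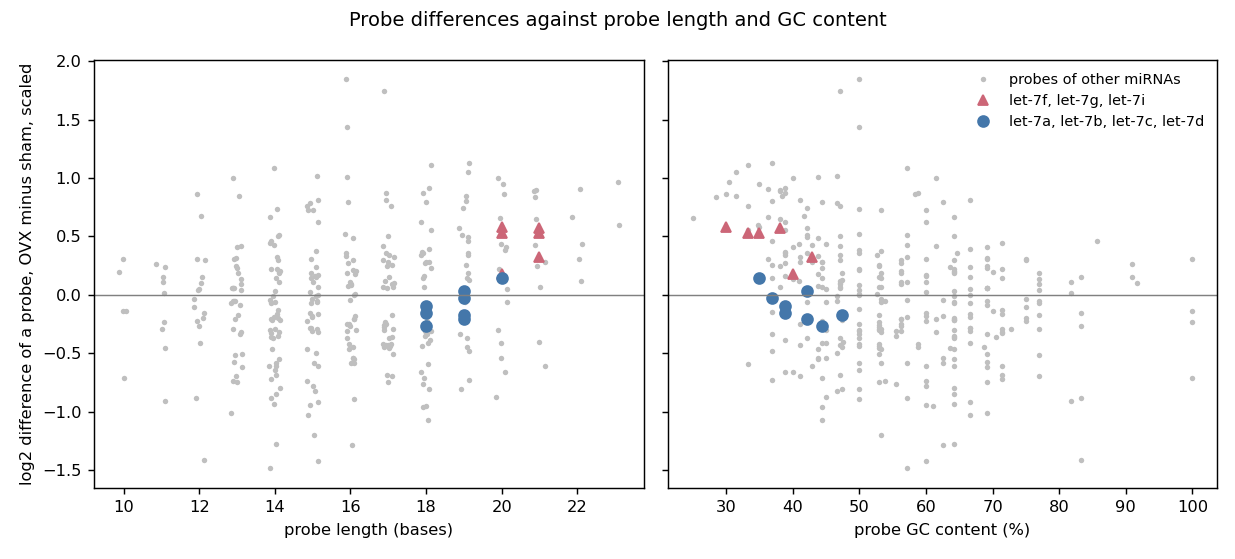
Scaled log2 difference, OVX minus sham, of each of the 350 probes present on both arrays against probe length (left, with sideways jitter for other miRNAs) and probe GC content (right), with let-7f, let-7g and let-7i as triangles and let-7a, let-7b, let-7c and let-7d as circles. At 20 bases let-7a sits at 0.15 and let-7i at 0.18, below let-7f at 0.58 and let-7g at 0.53.

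When the straight-line trend with probe GC content was removed, let-7f and let-7g stayed above 0 at lower values of 0.29 and 0.34, a move of over 1.5 times. let-7i was then at 0.09, let-7a at -0.16, let-7c at -0.20, let-7b at -0.32 and let-7d at -0.34. The gap between let-7f and let-7b was 0.61 with this correction and ran from 0.57 to 0.81 over all 16 alternatives. let-7f and let-7g were the top pair in each of the 16, of which 10 can change the order. let-7f, let-7g and let-7i, grouped after the values were seen, lay above the other 4 in each. All 16 reprocess the same 2 arrays, so the count describes the processing and is not a replicate check. The sum of probes and the gene-level signal gave the same gap of 0.74 between let-7f and let-7b. For these 7 members the gene-level signal equals the total over their probes. These 2 settings therefore order the members alike and are not separate checks. The signs of single members depended on the scaling. Without scaling, with scaling to control probes and with the gene-level signal all 7 were above 0, whereas with scaling to the median, or with the GC or length trend removed, 3 were. The median over all miRNAs was 0.97 without scaling, 0.65 with control probes, 0.19 with the gene-level signal and -0.23 with median scaling. In each of these settings 5 members lay above that median, and 3 did with the GC or length trend removed. The split over all 197 miRNAs moved too: 22 were at least 1.5-fold higher and 29 lower as reported, 31 and 17 with the 75th percentile of all probes, and 155 and 0 without scaling.

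**Figure D4:**
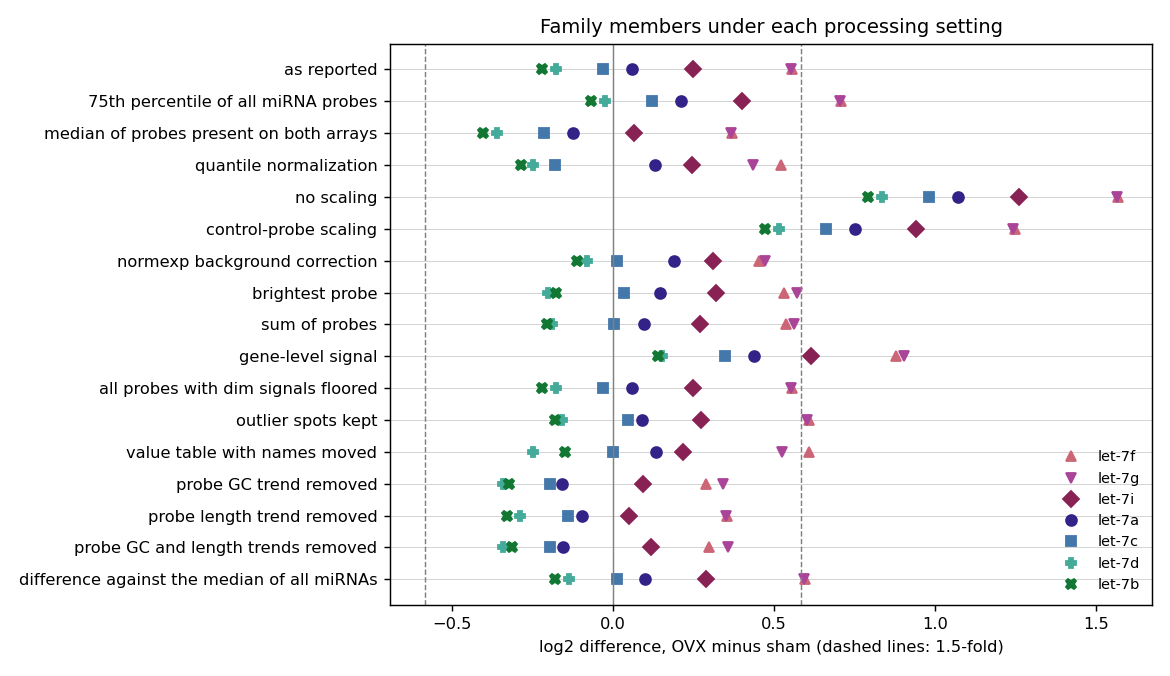
Log2 difference, OVX minus sham, of the 7 measured members under the reported setting and 16 alternatives, with dashed lines at 1.5-fold. The whole group moves with the scaling, from a let-7b low of -0.40 with median scaling to a let-7f high of 1.57 without scaling, while let-7f and let-7g stay highest.

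Members that lie together in the genome were set side by side. On chromosome 13 the let-7a-1, let-7f-1 and let-7d hairpins lie within 10 kb of each other, and the mature miRNAs stood at 0.06, 0.56 and -0.18. let-7f was 0.73 above let-7d (spot SE 0.05) and 0.50 above let-7a (spot SE 0.05). let-7a and let-7f each come from another chromosome as well, and the array cannot tell the copies apart. On chromosome 15 let-7c-2 and let-7b are neighbours, and let-7c was 0.19 above let-7b (spot SE 0.04). let-7c comes from chromosome 16 as well, and its copies cannot be told apart either. On chromosome X let-7f-2 and miR-98 are neighbours. let-7f was present on both arrays and miR-98 on neither, but the let-7f signal also includes its chromosome 13 copy.

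The list of cluster partners held 5 miRNAs: miR-99a, miR-99b, miR-100 and miR-125a, whose hairpins lie within 10 kb of a let-7 hairpin, and miR-125b, whose hairpins do not. Of these, only miR-125b-5p was present on both arrays, by 1 of its 2 probes. That probe read 36.4 in sham and 93.1 in OVX, a scaled difference of 0.34 (spot SE 0.08). miR-125b is known for restraining differentiation in several lineages. miR-99a-5p, next to let-7c-1, was present on the OVX array only, and its bound gives no fold. miR-100-5p, next to let-7a-2, and miR-99b-5p and miR-125a-5p, next to let-7e, were present on neither array, as was let-7e itself.

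The other arm of the hairpins, usually degraded, was looked for with 41 probes for 11 miRNAs. None was present on either array, and their highest probe signals were 8.88 in sham and 9.89 in OVX, both for let-7b-3p. Outside the 9 members, let-7k and miR-1961 carry the same seed among the 1608 array miRNAs with a sequence in the RefSeq table, and neither was present. let-7j and miR-202-3p share bases 2 to 7 with the family and differ at base 8. let-7j was not present, and miR-202-3p, a dim miRNA known from gonads, read 19.4 in sham and 26.2 in OVX on the probe that was present on both arrays, a scaled difference of -0.58 (spot SE 0.09). Its other probe read 19.5 in sham and 22.6 in OVX and was present in sham only.

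**Figure D5:**
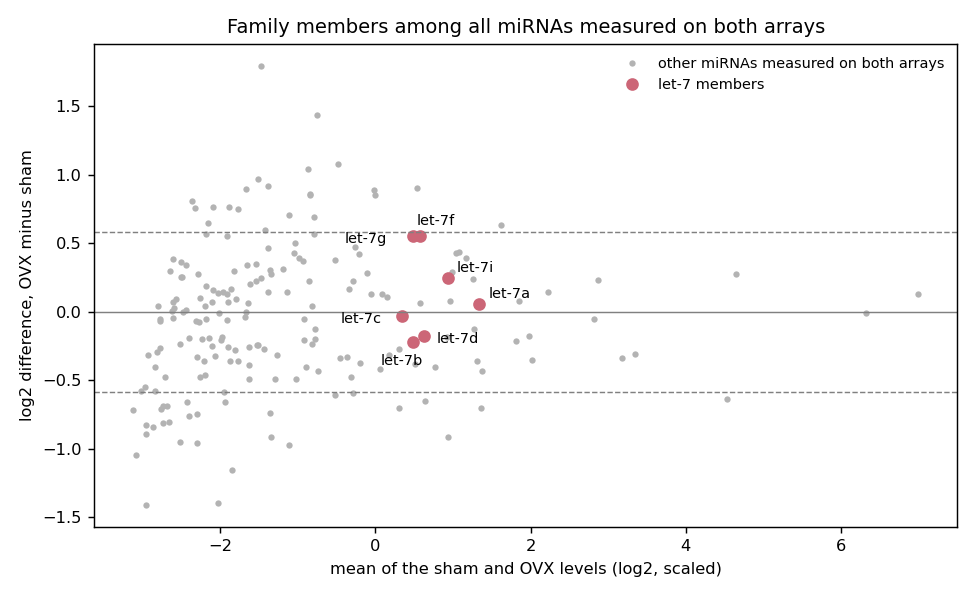
Scaled log2 difference, OVX minus sham, against the mean level (log2, scaled) of the 197 miRNAs present on both arrays, with the 7 let-7 members in colour and dashed lines at 1.5-fold. The members lie between -0.22 and 0.56, inside the dashed lines.

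The 3 miRNAs outside the family nearest to its median pair of levels (0.59 in sham and 0.76 in OVX) were named, with Euclidean distance over 2 arrays as the measure of likeness. They were miR-26a-5p at a distance of 0.17, miR-106b-5p at 0.41 and miR-92a-3p at 0.42. Their differences were 0.06 (spot SE 0.05), 0.08 (spot SE 0.04) and -0.40 (spot SE 0.03). Levels depend on the probe, so nearness here is a likeness in brightness.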

How the data were processed

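miRNA levels were measured in 2 pooled femur RNA samples, 1 sham and 1 OVX, on 1 array each. The deposited scanner files hold intensity values per spot made by the authors with Agilent Feature Extraction, version 10.7.1.1 per the file headers and 11.0.1.1 per the submitters' processing notes. Processed intensities had background subtracted but were not normalized between arrays, per the file headers. The authors also deposited a table of log2 values, normalized in a way not given in the sources used here, with column medians of -3.18 for sham and -3.32 for OVX. Over the 197 miRNAs the Spearman correlation with summed probe signals was 0.04 and 0.12 under the printed row names and 0.97 and 0.98 with names moved by 1 row, so it served only as an alternative with moved names. Scale is log2; centring is unknown.

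Control and outlier spots were dropped (18 of 270 member spots in sham and 9 of 270 in OVX); no miRNA spot was saturated. Each probe's mean processed intensity was taken to log2, minus the 75th percentile of the 350 probes present on both arrays. Levels of a miRNA average its probes among these. Spot SEs were propagated from the spread between spots. The number of arrays, 1 per group, limits the precision. The calculation was run on simulated spots with known differences and the spot spread of the sham array. That run holds no variation between mice and cannot show which scaling suits these arrays. Alternatives were other scalings, normexp background correction (limma 3.58.1, offset 50), other summaries and filters, the value table and trends with probe GC content, and, added after seeing the data, trends with probe length and differences against the median of all miRNAs. The members, lists and alternatives were chosen with earlier results of these data known. Named were all members, miRNAs with the same seed and let-7j, let-7k, miR-1961 and miR-202-3p, other arms, cluster partners and the 3 nearest miRNAs. Calculations used Python 3.11.15 with numpy 2.4.6, pandas 2.3.3 and scipy 1.17.1.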

Additional observations from a re-analysis of the deposited data

Results flagged for a closer look

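Agilent's gene-level signal, used above only as an alternative, was high on the OVX array for the 2 members with no probe counted as present. For let-7e-5p it was 246.87 on the OVX array and 0.10 on the sham array, while the total signals of its own probes summed to 4.77 and 0.99. For miR-98-5p it was 230.41 on the OVX array and 0.10 on the sham array, against probe sums of 6.97 and 2.02. For the other 7 members the gene-level signal equalled the probe sum on both arrays, as for let-7f-5p with 362 in OVX and 94.99 in sham. In the authors' value table, with names moved by 1 row, let-7e-5p and miR-98-5p stood at -0.67 and -0.60 in OVX and at the sham column's lowest value of -3.18. The table's own differences are 2.51 for let-7e-5p and 2.58 for miR-98-5p, although no probe of either was present. The cause was not tested.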

How the results depend on the processing

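The median difference of the measured members, 0.06 as reported, became 0.21 with the 75th percentile of all miRNA probes, -0.13 with median scaling, 1.07 without scaling, 0.75 with control-probe scaling, 0.19 with normexp background correction and 0.44 with the gene-level signal. It was -0.16 with the probe GC trend removed and, in alternatives chosen after seeing the data, -0.10 with the length trend removed and -0.15 with both. The number of members at least 1.5-fold higher, 0 as reported, was 7 without scaling, 5 when scaled to control probes, 2 when scaled to all probes, 3 with the gene-level signal, 2 with outlier spots kept, 1 in the value table and 2 against the median of all miRNAs. The number at least 1.5-fold lower, 0 as reported, was 2 with dim signals floored, which adds let-7e and miR-98 at values set by the floors of the arrays. Over all 197 miRNAs, the median difference was -0.04 as reported, 0.97 unscaled and 0.65 when scaled to control probes. Among all 197, those 1.5-fold or more higher numbered 22 and those lower 29 as reported. Unscaled data gave 155 and 0, control-probe data 108 and 2, median-scaled data 13 and 46, all-probe scaling 31 and 17, the gene-level signal 50 and 22, and normexp 7 and 23. Of 112 member values under the alternatives, 53 moved by less than the spot SD and 59 by more, each against the member's own spot SD. The cause of these shifts was not tested beyond the scaling constants themselves. Dim probes limit let-7e and miR-98, whose signals lay near background. No paired analysis was possible because each group has 1 sample. Leaving out a replicate could not be run for the same reason.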
